A study of Sus scrofa with 24 samples.

Results

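The collagens and the genes of proteins that associate with collagen and elastic fibres were described in pig hearts after a myocardial infarct. The genes were taken by name: symbols of the form COL, digits, A, digits, symbols that start with LOX, FBLN, FBN, THBS, EMILIN or MFAP, and ELN, DCN, LUM, BGN, OGN, ASPN, PRELP, SPARC and SPP1, with COL11A1 left out. The rule found 40 genes, on 110 probes, among 6979 genes named on the array. Of these, 36 had a probe that stood well above background on 3 or more of the 24 arrays. COL11A2, COL19A1, COL4A3 and COL4A4 had none and are not described further. The spelling of the rule also caught MFAP1, which despite its name encodes a protein of the splicing machinery. It has a role of its own below but stays in the counts and medians of the 36 genes. No probe was matched to the symbols COL1A1 or COL3A1.

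The arrays came from 9 domestic pigs. In every pig a coronary artery was closed and reopened by catheter to make an infarct, and all received aspirin and clopidogrel, so these drugs are common to every group. At 1 month after the infarct, 6 pigs received by catheter, into the heart muscle, the secretome of apoptotic peripheral mononuclear cells, that is, what these blood cells release in culture (pigs 11, 12, 13, 14, 15 and 16) and 3 received medium as placebo (pigs 10, 18 and 40), and tissue was taken 1 month later from the infarct core, the border zone that had received the injections and a normal region. The secretome arm gave 6 arrays of the infarct core, 6 of the border zone and 4 of the normal region, and the medium arm gave 3, 3 and 2, since pigs 12, 13 and 40 had no normal region array here. The labels mark the pigs of the medium arm only as not treated, and they were taken as that arm. Neither age nor sex of the pigs is stated.

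Collagens are built of chains in which glycine recurs at a fixed spacing, which lets the chains wind around each other. Fibrillar collagens form the load-bearing fibres of a scar, other collagens coat those fibres or build basement membranes, lysyl oxidases cross-link collagen and elastin, and small leucine-rich proteoglycans sit on the fibrils and govern their thickness and spacing. In the heart these genes are expressed mainly by fibroblasts, and infarct scars are rich in their products.

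The glycine pattern can be read in the 60 bases of some probes, shown here because they mark which transcripts were measured within the collagen helix. Each sequence is given as in the scanner files, 5′ to 3′, with the glycine codons that keep a single register of the helix spacing in capitals.
COL8A1, probe A_72_P414108: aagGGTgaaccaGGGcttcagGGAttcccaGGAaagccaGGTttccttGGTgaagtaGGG
COL14A1, probe A_72_P585771: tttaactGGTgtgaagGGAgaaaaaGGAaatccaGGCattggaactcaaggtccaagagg
COL7A1, probe A_72_P664371: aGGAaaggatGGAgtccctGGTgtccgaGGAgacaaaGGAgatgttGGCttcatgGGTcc
COL17A1, probe A_72_P185361: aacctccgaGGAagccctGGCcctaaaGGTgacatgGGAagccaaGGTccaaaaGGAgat
The COL8A1 and COL7A1 probes hold a glycine codon at 7 of 7 such positions, the COL17A1 probe at 6 of 7 and the COL14A1 probe at 4 of 6. Later glycine codons of the COL14A1 probe have the same spacing but lie out of that register and were not counted. These 4 probes behaved differently in the infarct core: the COL8A1 probe differed from the normal region by 4.17 ± 0.46 and the COL14A1 probe by 3.09 ± 0.37 on the log2 scale (± SE), against 1.05 ± 0.20 for COL7A1 and 0.33 ± 0.12 for COL17A1.

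Levels below are log2 of the processed signal divided by the array's own 75th percentile, so a probe at that percentile has a level of 0. Probes differ in how they hybridize, and levels are therefore compared between regions of one probe and never between genes. A gene was read from its brightest probe, differences were tested with limma over all 34360 probes kept, with pig as a random block and equal weight for both arms, and a gene was called at a Benjamini-Hochberg adjusted p under 0.05. On an array, 61.5% to 75.7% of probes lay well above background, and the 75th percentile of the signal ranged from 210 to 617 intensity units. Both were lowest on the border zone array of pig 40. The arrays were scanned in 2 series: series 1 held pigs 12, 13, 16, 18 and 40, and series 2 held pigs 10, 11, 14 and 15. Arrays of different pigs and groups correlated, as deviations from the group means, at 0.44 on average within a scan series and at -0.45 across them. The values within each series therefore stand beside the results they touch. Each array is 1 tissue sample of 1 pig.

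In the infarct core, 28 of the 36 members were higher than in the normal region and 2 were lower. Among all 6363 named genes with a kept probe, 27.7% were higher and 30.7% lower. The median log2 difference was 2.20 over the members and -0.06 over all named genes. Of the members, 20 were higher in the infarct core with no overlap between its 9 arrays and the 6 of the normal region, which held for 9.76% of named genes. The largest differences were those of SPP1, COL12A1, COL8A1, BGN, THBS3 and COL1A2. FBLN5 and COL10A1 were the 2 that fell.

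**Figure D1:**
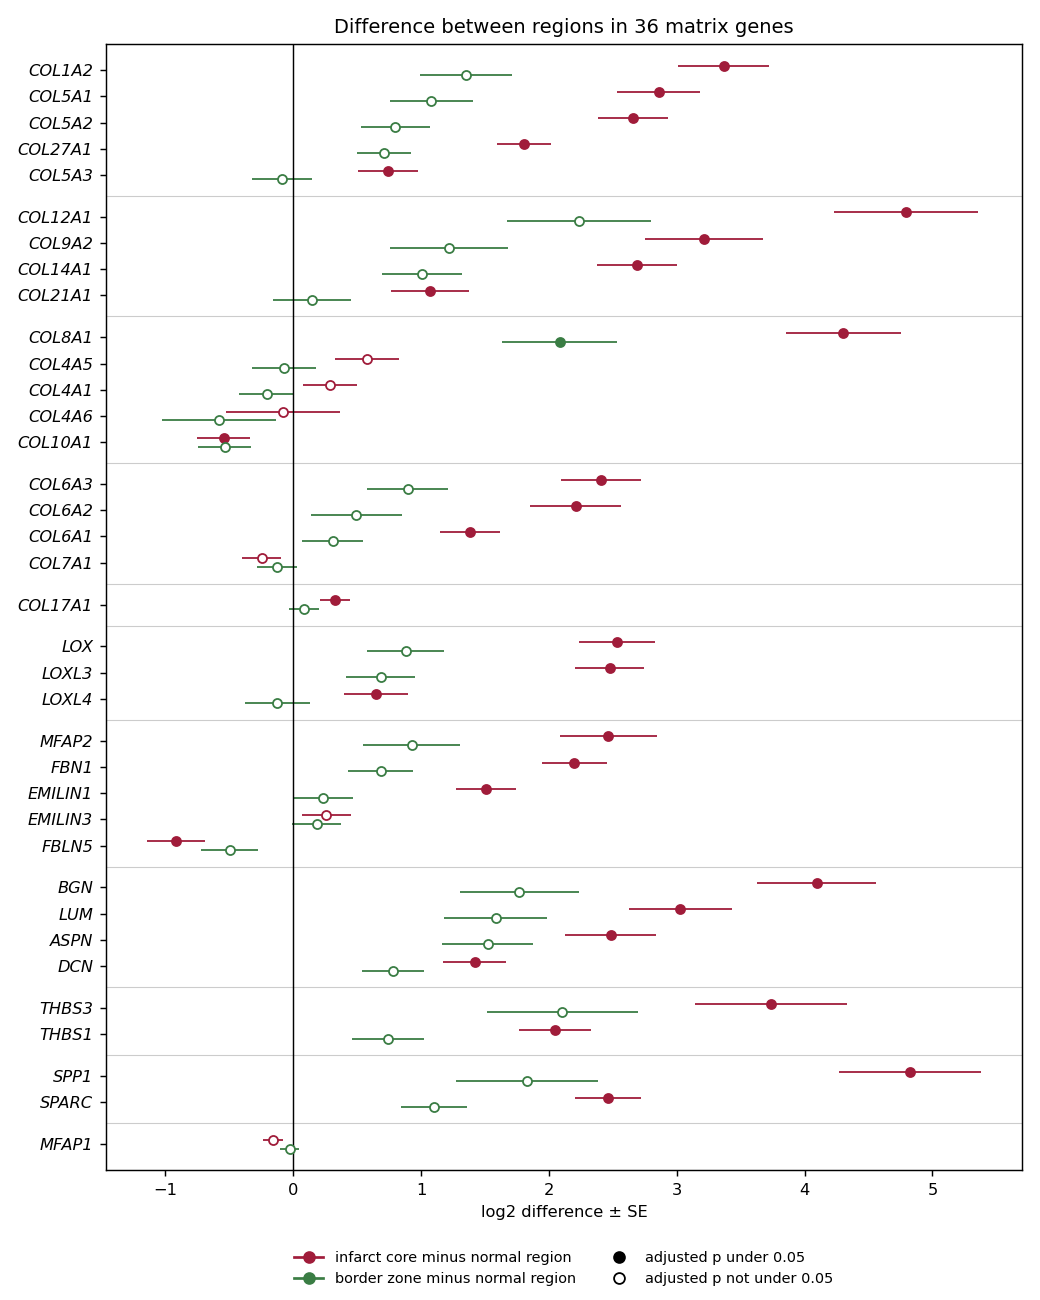
The log2 differences (± SE) of the 36 genes are plotted by role, infarct core minus normal region in red and border zone minus normal region in green, with filled points where the adjusted p is under 0.05. In red 28 genes are called higher and 2 lower, and in green 1 is called; for COL9A2 the normal region was not well above background, so its point is the fitted value and not a measured fold.

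All 5 fibrillar collagens measured rose in the infarct core. COL1A2, a chain of type I collagen, the main fibre of scar, had levels of 5.84, 6.74 and 7.30 in the infarct core (lowest, median and highest of 9 arrays), 2.94, 5.14 and 5.57 in the border zone and 2.92, 3.26 and 4.56 in the normal region (of 6). Every infarct core array was above every array of the other regions. The difference from the normal region was 3.37 ± 0.36 (SE), 10.3-fold, with an adjusted p of 4.63e-07. COL5A1 and COL5A2, chains of the type V collagen that starts fibrils and limits their width, were 2.86 ± 0.32 and 2.66 ± 0.27 higher than in the normal region (adjusted p = 8.83e-07 and 3.45e-07), again with no overlap. COL27A1, a fibrillar collagen known best from cartilage, was 1.80 ± 0.21 higher, and COL5A3 had the smallest difference of the group, 0.74 ± 0.23 (adjusted p = 1.21e-06 and 0.0107). The COL5A3 levels of the regions overlapped, from 0.04 to 1.28 in the infarct core and from -0.81 to 0.51 in the normal region. COL5A3 was not called without a pig block or within either scan series.

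The 4 collagens that associate with fibrils also rose. COL12A1, whose product coats type I fibrils under tension, was at -1.29, -0.38 and 0.54 in the infarct core, -7.33, -2.79 and -1.64 in border zone arrays and -6.34, -5.02 and -3.83 in the normal region, where it was well above background on 4 of 6 arrays. Its difference between infarct core and normal region was 4.80 ± 0.56, 27.8-fold (adjusted p = 1.21e-06), with no overlap and the same sign in 6 of 6 pigs. The size varied with the processing: it was 2.01 with normexp background correction and 1.49 in the authors' deposited table of log2 values, called in both. COL14A1, which joins fibrils to other matrix, had 11 probes, all called higher, with differences from 2.42 to 3.09. Of all kept probes, named or not, 25.4% were called higher and 27.6% lower. Its brightest probe was at 4.65, 5.96 and 6.16 in the infarct core, against 2.59, 2.95 and 3.80 in the normal region. COL21A1 was 1.07 ± 0.30 higher (adjusted p = 0.0054), with the sign shared by 5 of 6 pigs. It was not called within scan series 2 or without pig 18, and the lowest difference with a pig left out was 0.82. COL9A2, a chain of the type IX collagen of cartilage, was well above background on 8 of 9 infarct core arrays, 3 of 9 border zone arrays and 0 of 6 normal region arrays. Only a bound can be given for it: it was at least 3.56-fold higher in the infarct core than in the normal region (adjusted p = 9.32e-06), with the normal region set to the weakest signal that counts as well above background on each array. The call was lost with normexp, where the log2 difference was 0.38.

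Basement membrane and network collagens did not move as a group. COL8A1, a short-chain collagen of vessel walls, was 4.30 ± 0.45 higher in the infarct core, 19.7-fold (adjusted p = 3.86e-07). Its levels were 5.10, 5.77 and 7.09 in the infarct core, 0.89, 4.06 and 4.76 in border zone arrays and 0.92, 1.50 and 3.76 in the normal region. The infarct core overlapped neither of the others, and the 3 COL8A1 probes differed by 4.17 to 4.50. COL4A1, a main chain of every basement membrane, was at 4.80, 5.21 and 5.93 in the infarct core, 2.98, 5.06 and 5.76 in border zone arrays and 4.79, 5.44 and 5.75 in the normal region. The infarct core and normal region ranges overlapped over all arrays, and the difference of 0.28 ± 0.21 was not called (adjusted p = 0.271). The 5 kept COL4A1 probes differed by 0.28 to 0.55, the brightest one least, and 1 of them was called higher. Within scan series 2 the infarct core arrays, at 5.84 to 5.93, lay above those of the normal region, at 5.37 to 5.75, and within series 1 they overlapped. With quantile normalization it was 0.76 and called (adjusted p = 0.00597, from 0.00597 to 0.891 over the alternatives). COL4A5 and COL4A6, chains of basement membranes of the kidney and of smooth muscle among others, differed by 0.57 ± 0.25 and -0.08 ± 0.45 and were not called (adjusted p = 0.0591 and 0.891). The COL4A6 probe was dim, well above background on 17 of 24 arrays. COL10A1, a collagen of growing cartilage, was 0.55 ± 0.21 lower on the log2 scale in the infarct core (adjusted p = 0.0306) and lower in 5 of 6 pigs. It too was dim, with 17 of 24 arrays well above background, and its call was lost in 7 of 21 alternatives: with normexp (-0.40), with the percentile taken over detected probes (-0.46), with no pig block (-0.43), within scan series 2 (-0.25), and without pig 14, 16 or 18.

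The 3 chains of type VI collagen, which forms beaded filaments around cells, rose in the infarct core, and COL7A1, the collagen of anchoring fibrils in skin, was not called. COL6A3 was at 4.37, 5.25 and 6.13 in the infarct core, against 2.43, 3.08 and 3.66 in the normal region, a difference of 2.41 ± 0.32 (adjusted p = 3.56e-06). COL6A2 and COL6A1 differed by 2.21 ± 0.36 and 1.38 ± 0.24 (adjusted p = 2.95e-05 and 5.49e-05), and the ranges of COL6A1 overlapped. COL7A1 was read from a probe at 1.18, 1.88 and 2.48 in the infarct core and 1.76, 2.13 and 2.57 in the normal region, a difference of -0.25 ± 0.16 (adjusted p = 0.187). The helix probe of COL7A1 printed above and another probe of that gene were called higher, by 1.05 and 1.17, so the direction for COL7A1 depends on the probe. COL17A1, a transmembrane collagen of skin attachments, was 0.33 ± 0.12 higher by its brightest probe (adjusted p = 0.0242). Its ranges in the infarct core (-3.52 to -2.02) and the normal region (-3.54 to -2.81) overlapped, 4 of 6 pigs shared the sign, its call held in 13 of 22 alternatives, and its second kept probe differed by -0.30 (adjusted p = 0.265).

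The lysyl oxidases LOX, LOXL3 and LOXL4 were each higher in the infarct core. LOX, the enzyme that starts the cross-linking of collagen and elastin, was at 2.46, 3.76 and 4.06 in the infarct core, 0.71, 1.80 and 2.89 in border zone arrays and 0.54, 1.05 and 2.01 in the normal region. It differed from the normal region by 2.53 ± 0.30, 5.79-fold (adjusted p = 1.29e-06), with no overlap. LOXL3 differed by 2.47 ± 0.27 (adjusted p = 6.07e-07), also with no overlap, and was well above background on 9 of 9 infarct core and 5 of 6 normal region arrays; with normexp it differed by 0.58 and was not called (adjusted p = 0.123), and in the authors' deposited table it differed by 0.45 and was called. LOXL4 differed by 0.64 ± 0.25 (adjusted p = 0.0361), a call that held in 9 of 22 alternatives.

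Proteins of elastic fibres went both ways. FBN1, the fibrillin that makes up microfibrils, was at 0.40, 1.26 and 1.68 in the infarct core, against -1.41, -1.05 and -0.21 in the normal region, and MFAP2, a microfibril glycoprotein, was at 1.92, 2.58 and 4.88 against -0.94, 1.45 and 2.58. Both rose, by 2.20 ± 0.25 and 2.46 ± 0.38 (adjusted p = 1.05e-06 and 1.84e-05). EMILIN1, a glycoprotein found where elastin meets microfibrils, rose by 1.51 ± 0.24 (adjusted p = 2.14e-05), and EMILIN3 was not called (0.26 ± 0.19, adjusted p = 0.275). FBLN5, which guides the assembly of elastin onto microfibrils, fell. Its levels were 2.01, 3.16 and 4.44 in the infarct core, 2.26, 4.04 and 4.78 in border zone arrays and 3.91, 4.80 and 4.98 in the normal region. The ranges overlapped between pigs, but within a pig FBLN5 was lower in the infarct core in 6 of 6 pigs against the normal region and in 9 of 9 against the border zone. It fell by 0.92 ± 0.22 against the normal region (adjusted p = 0.00177), and with normexp it fell by 0.86 and was not called (adjusted p = 0.0645, from 0.000134 to 0.0645 over the alternatives).

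The small leucine-rich proteoglycans all rose. BGN (biglycan) was at 0.79, 1.36 and 3.03 in the infarct core, -2.58, -0.30 and 0.31 in border zone arrays and -3.60, -2.29 and 0.01 in the normal region, which leaves the infarct core above every other array. It differed from the normal region by 4.09 ± 0.47, 17.1-fold (adjusted p = 9.35e-07). LUM (lumican) was at 3.79, 5.15 and 5.67 in the infarct core, against 0.83, 1.68 and 2.82 in the normal region, and its 9 probes were all called higher, by 2.66 to 3.09. ASPN (asporin) and DCN (decorin) differed by 2.48 ± 0.36 and 1.42 ± 0.25 (adjusted p = 8.98e-06 and 6.27e-05). DCN had the smallest difference of the 4 and still did not overlap, at 7.46 to 8.86 in the infarct core and 6.52 to 7.26 in the normal region.

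Matricellular proteins, which signal to cells rather than bear load, gave some of the largest differences. SPP1 (osteopontin), which macrophages also secrete, was at 2.59, 2.86 and 7.04 in the infarct core, -2.04, 0.89 and 2.37 in border zone arrays and -1.92, -0.78 and 1.29 in the normal region. It differed from the normal region by 4.82 ± 0.55, 28.3-fold (adjusted p = 9.97e-07), higher in 6 of 6 pigs, and its 4 probes by 4.63 to 5.14. SPARC, a collagen-binding protein, was at 6.99, 7.33 and 7.96 in the infarct core, against 4.60, 5.16 and 5.82 in the normal region, and rose by 2.46 ± 0.26 (adjusted p = 4.18e-07). THBS1, an activator of latent TGF-beta, rose by 2.05 ± 0.28 and THBS3 by 3.74 ± 0.59 (adjusted p = 5.21e-06 and 2.49e-05). MFAP1, the splicing protein and not a matricellular one, was at 3.09 to 3.38 in the infarct core and 3.17 to 3.55 in the normal region. It differed by -0.16 ± 0.08 (adjusted p = 0.0876 in limma). Its 4 probes differed by -0.32 to -0.13, and 1 of them was called lower. By its brightest probe it was lower in the infarct core in 6 of 6 pigs against the normal region and in 9 of 9 against the border zone.

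**Figure D2:**
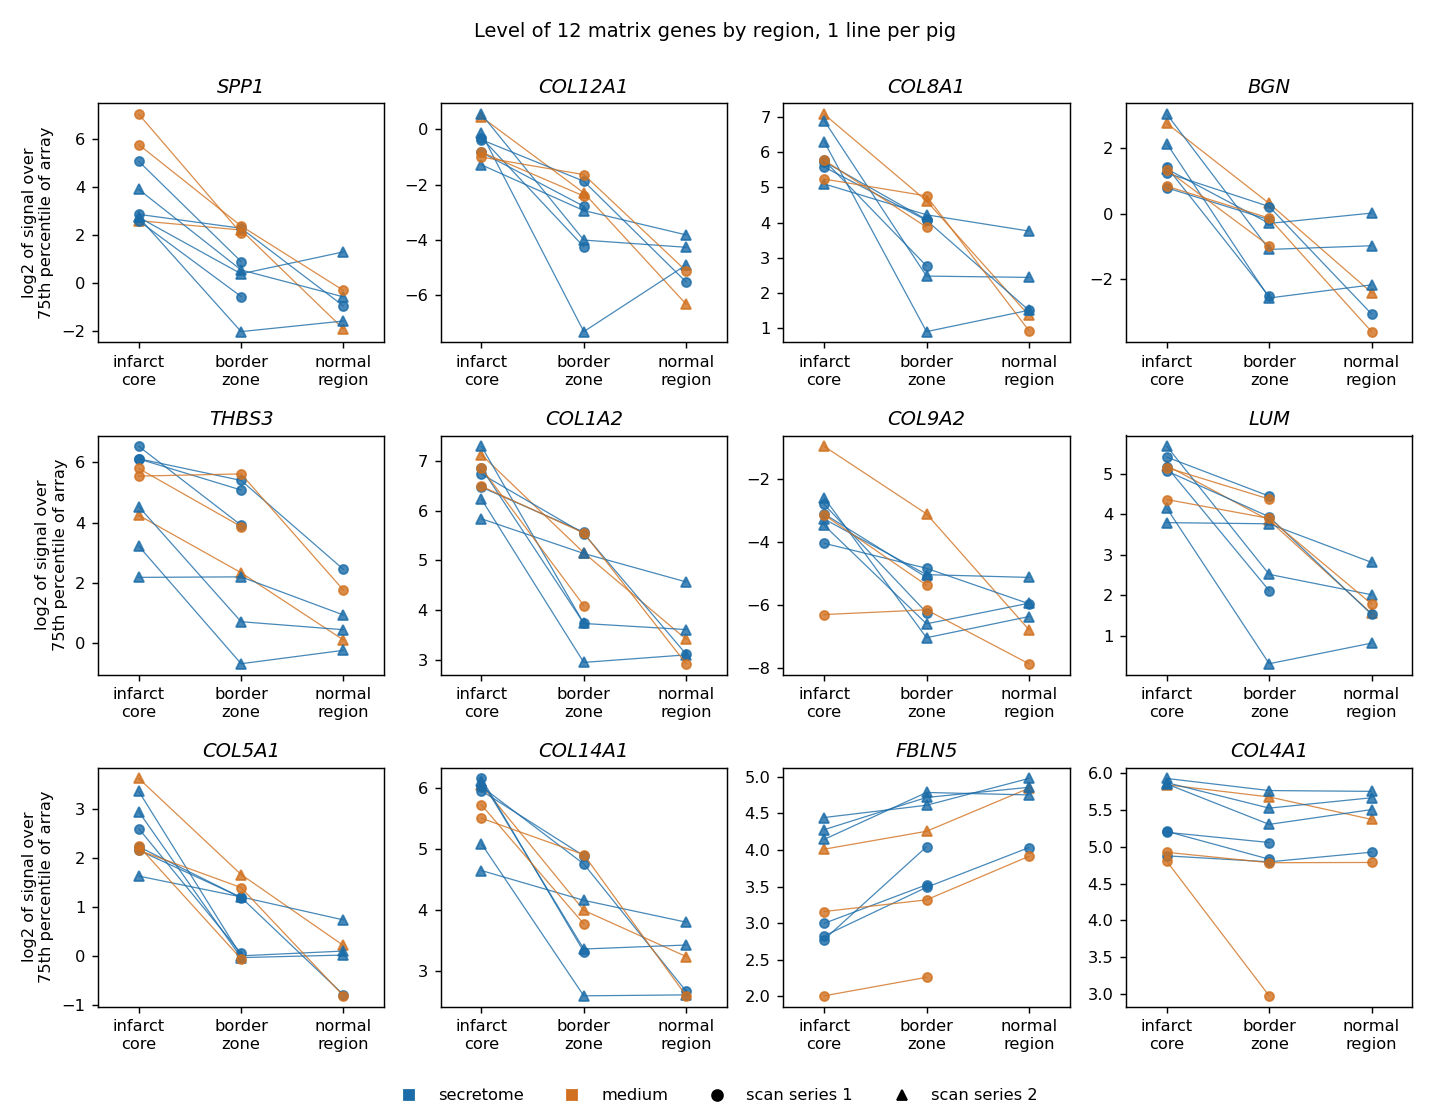
Levels of 12 genes are plotted by region on a log2 scale, with 1 line per pig, colour for the arm and symbol for the scan series. For SPP1, COL12A1, COL8A1, BGN, COL1A2, LUM, COL5A1 and COL14A1 the infarct core points lie above all normal region points, FBLN5 is lowest in the infarct core in every pig, and for COL4A1 the lowest point, 2.98, is the border zone of pig 40.

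For 4 members, infarct core and normal region overlapped over all arrays but not within either scan series: COL6A1, MFAP2 and THBS3 were higher in the infarct core and FBLN5 was lower. Among named genes 4.51% showed this pattern with the infarct core higher and 10.5% with it lower. THBS3 was at 5.54 to 6.53 in the infarct core and 1.76 to 2.45 in the normal region of series 1, and at 2.18 to 4.53 and -0.24 to 0.93 in those regions of series 2. These are levels of the brightest THBS3 probe, and their gap between series depends on the probe, as given below for the second one. MFAP2 was at 1.92 to 2.58 in the infarct core and -0.94 to -0.06 in the normal region of series 1, and at 3.36 to 4.88 and 1.39 to 2.58 in series 2. COL6A1 was at 0.91 to 1.75 in the infarct core and 0.03 to 0.08 in the normal region of series 1, and at 1.74 to 2.88 and 0.59 to 1.05 in series 2. FBLN5 was at 2.01 to 3.16 in the infarct core and 3.91 to 4.03 in the normal region of series 1, and at 4.01 to 4.44 and 4.75 to 4.98 in series 2. In the infarct core, 2 of the 36 members were higher in series 1 with no overlap between series and 4 were higher in series 2, where 10.5% of named genes were higher in series 1 and 26.1% in series 2. The normal region had 2 arrays of series 1 and 4 of series 2. With scan series as a covariate, 30 members were called between infarct core and normal region, 28 higher and 2 lower, the same numbers as without it; the pigs of a series differ too, and series and animal cannot be told apart for a level.

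Other genes of collagen synthesis moved with the members. Of 12 measured genes for hydroxylating, folding, exporting and trimming procollagen, 11 were higher in the infarct core than in the normal region, with a median log2 difference of 1.29. Among all named genes, 27.7% were higher. FKBP10, a chaperone of procollagen in the endoplasmic reticulum, differed by 2.89 ± 0.32, and PLOD2, the lysyl hydroxylase of the telopeptides that cross-links use, by 2.31 ± 0.27. ADAMTS2, which removes the amino-terminal propeptide, differed by 2.20 ± 0.30 and SEC23A, part of the coat of vesicles that carry procollagen, by 0.99 ± 0.12. P3H3, a prolyl 3-hydroxylase, and FKBP14, another chaperone, differed by 2.13 ± 0.27 and 2.11 ± 0.26. The gene not called, named after its value was seen, was TLL2, at 0.48. Between border zone and normal region 0 of the 12 were called by limma, where 0.613% of named genes were called higher. An unadjusted p under 0.05 in limma was found for 6 of the 12 and for 1111 of 6363 named genes.

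Markers of cardiomyocytes, macrophages and fibroblasts moved with the regions as well. All 10 measured markers of cardiomyocytes were lower in the infarct core than in the normal region, and 8 of 8 of macrophages and 6 of 7 of fibroblasts were higher. Among all named genes 27.7% were higher and 30.7% lower. For endothelium 3 of 7 and for adipocytes 2 of 5 were lower, and of 4 of smooth muscle 2 were higher and 2 lower. These last counts are too small to set apart from the share over all named genes. The log2 of the summed cardiomyocyte signal was 7.14, 11.5 and 12.8 in the infarct core, 11.8, 12.9 and 13.2 in border zone arrays and 12.6, 13.1 and 13.3 in the normal region. The fibroblast sum was 8.05, 8.91 and 9.52 in the infarct core, 5.08, 7.18 and 8.21 in border zone arrays and 5.39, 5.80 and 6.49 in the normal region. For macrophages the sum was 6.15, 7.22 and 8.11, against 5.03, 6.17 and 6.64 in the border zone and 5.29, 5.53 and 6.17 in the normal region. In such bulk tissue, more cells of a type and more RNA per cell cannot be told apart, and the part of these shifts in the members' differences was not tested.

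Against the border zone, 29 of the 36 members were higher in the infarct core and 0 were lower, where 25.9% of named genes were higher and 26.2% lower by limma; 31 of the 36 members and 3710 of 6363 named genes had an unadjusted p under 0.05. The largest differences were those of SPP1 (2.99 ± 0.48), COL12A1 (2.56 ± 0.49), BGN (2.33 ± 0.40), COL8A1 (2.22 ± 0.39) and COL1A2 (2.01 ± 0.31). Regions did not overlap for 10 members, a pattern that 2.39% of named genes had. COL4A1 and COL4A5, not called against the normal region, were called higher here, by 0.49 ± 0.18 and 0.65 ± 0.22 (adjusted p = 0.0321 and 0.0186), and the call held in 12 and 16 of 22 alternatives. The border zone array of pig 40 was the lowest of all for COL4A1, at 2.98, and without pig 40 its difference was 0.21. That array also had the lowest share of probes well above background, 61.5%, and the lowest 75th percentile, 210. Without pig 40, 25 members were called. Within scan series 2, of 4 pigs, 17 were called.

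Between border zone and normal region 1 member passed, COL8A1, with a difference of 2.08 ± 0.45 (adjusted p = 0.0394), when 0.613% of named genes were called higher and 0.0157% lower. This call was lost in 17 of its alternatives, the scan series covariate among them (2.08, adjusted p = 0.0826, from 0.0149 to 0.999 over the alternatives). By unadjusted p, 23 of the 36 members and 1111 of 6363 named genes were under 0.05, and the median difference was 0.73 over the members and -0.03 over named genes. COL12A1 (2.23 ± 0.56), THBS3 (2.10 ± 0.59), SPP1 (1.83 ± 0.55) and BGN (1.77 ± 0.47) had the next largest differences and were not called (adjusted p = 0.0719, 0.107, 0.132 and 0.0872). Of the 3 region differences this one varied most in sign from pig to pig.

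Within a pig, the infarct core minus normal region difference had a median over the 36 members of 2.10 in pig 11, 2.30 in pig 14, 0.73 in pig 15 and 2.12 in pig 16 of the secretome arm and of 2.49 in pig 10 and 2.20 in pig 18 of the medium arm. Pig 15 had the lowest difference of the 6 pigs for 26 of the members, and in it 31 members were still above 0. The border zone minus normal region median was -0.20 in pig 11, -0.08 in pig 14, 0.23 in pig 15 and 1.14 in pig 16, against 0.67 in pig 10 and 1.68 in pig 18 of the medium arm. In pig 11, 8 of 36 members were higher in the border zone than in the normal region, in pig 14 there were 14, and in the other 4 pigs 29 or 30. Pigs 16 and 18, with the 2 highest medians, are the 2 of scan series 1 with a normal region. Without pig 11, 5 members were called between border zone and normal region, and without pig 15 there were 2.

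**Figure D3:**
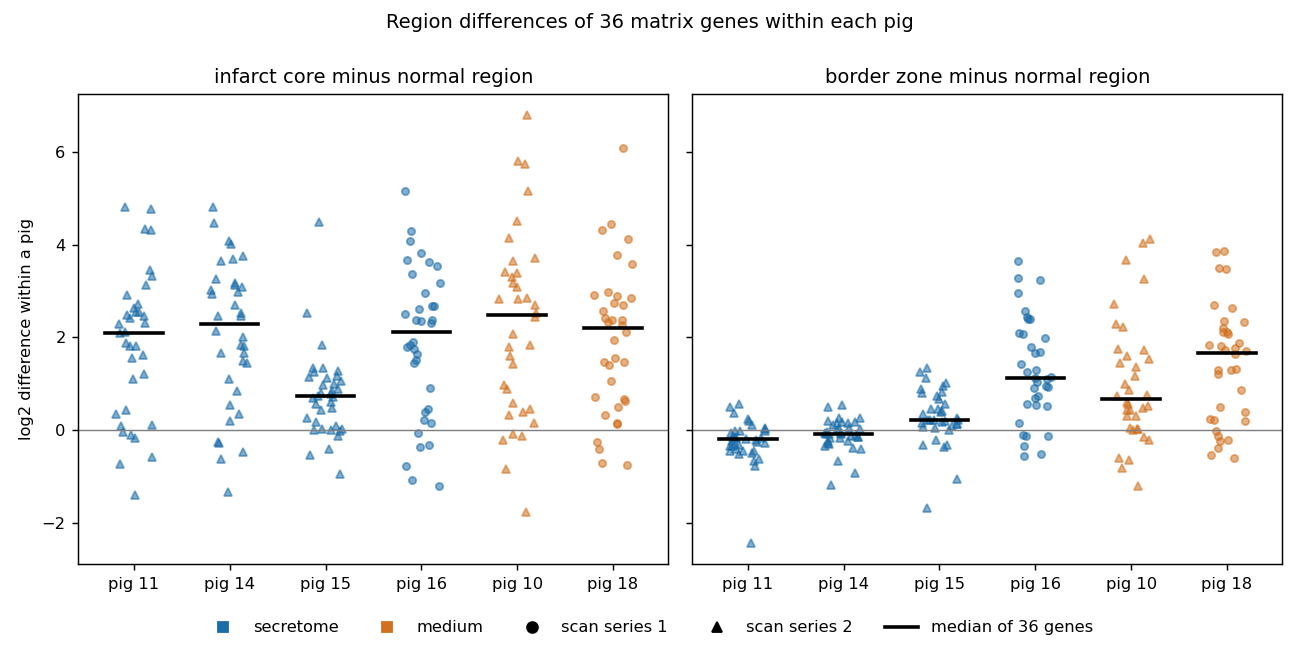
Each point is the log2 difference of 1 gene within 1 pig, infarct core minus normal region on the left and border zone minus normal region on the right, with a black line at the median of 36 genes. On the left the medians lie from 0.73 (pig 15) to 2.49 (pig 10), and on the right from -0.20 (pig 11) to 1.68 (pig 18).

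The arms were compared to ask whether the secretome changed these genes. In the infarct core 0 of the 36 members were called between secretome and medium by limma, where 0.0314% of named genes were called lower. An unadjusted p under 0.05 was found for 353 of 6363 named genes and for 1 member. That member was COL17A1, at -3.52, -3.28 and -2.80 in the secretome arm (lowest, median and highest of 6), against -2.37 (pig 10), -2.49 (pig 18) and -2.02 (pig 40) in the medium arm. The arms did not overlap, as for 2.04% of named genes in either direction, and the difference was -0.94 ± 0.22 (adjusted p = 0.459 in limma over all probes). It was -0.74 within scan series 1. In series 2, where pig 10 alone stands for the medium arm, it was -1.09. With scan series as a covariate it was -0.87 with an adjusted p of 0.0232, where the alternatives ranged from 0.0232 to 1.00. The second COL17A1 probe differed by 0.20 ± 0.40, so the difference rests on 1 probe.

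SPP1 in the infarct core was at 2.59, 2.80 and 5.07 in the secretome arm, against 2.59 (pig 10), 5.77 (pig 18) and 7.04 (pig 40) in the medium arm, a difference of -1.82 ± 1.01 that was not called (adjusted p = 0.974). The arms overlapped. Macrophage markers, whose cells also secrete SPP1, summed to 6.15 to 7.46 in the secretome arm and 7.42 to 8.11 in the medium arm of that region, and their part in the SPP1 values was not tested. The SPP1 difference was -2.90 within scan series 1 and -0.87 without pig 40. In series 2, where pig 10 alone stands for the medium arm, it was 0.53. The infarct core of pig 40 also had the lowest cardiomyocyte sum of all arrays, 7.14, where the other infarct cores of the medium arm had 11.2 and 11.9 and those of the secretome arm 10.8 to 12.8. COL4A6, COL10A1 and FBLN5 differed by -1.35 ± 0.81, -0.42 ± 0.37 and 0.52 ± 0.41 (adjusted p = 0.974 each), and without pig 40 the FBLN5 difference was -0.01. The median difference between arms over the members was -0.10, and -0.01 over named genes.

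In the border zone, which received the injections, 0 of 36 members were called in limma, as were 0 of all named genes. An unadjusted p under 0.05 was found for 559 of 6363 named genes and for 1 member. FBLN5 was at 3.49, 4.33 and 4.78 in the secretome arm, against 4.25 (pig 10), 3.32 (pig 18) and 2.26 (pig 40), a difference of 0.92 ± 0.41 (adjusted p = 0.685 in limma). The arms overlapped, and the difference was 0.90 within scan series 1 and 0.41 without pig 40. SPP1 was at -2.04, 0.46 and 2.28 in the secretome arm, against 2.20 (pig 10), 2.37 (pig 18) and 2.07 (pig 40), and differed by -1.97 ± 1.01. Of the 6 secretome pigs, pig 16 lay within the range of the medium arm and the other 5 below it. All 8 measured macrophage markers had negative differences between arms there, where 3159 of 6363 named genes had positive ones. Of the 8, 0 were called by limma and 3 had an unadjusted p under 0.05, against 559 of the 6363 named genes. The 8 markers summed to 5.03, 5.65 and 6.32 in the secretome arm, against 6.19, 6.42 and 6.64 in the medium arm. Their part in the SPP1 values was not tested. ASPN, COL12A1 and COL4A1 differed by -1.31 ± 0.65, -1.75 ± 1.02 and 0.73 ± 0.39. The COL4A1 difference was -0.02 without pig 40, whose border zone array was at 2.98. Of all arrays, that one had the lowest share of probes well above background. The median over the members was -0.32, the summed fibroblast markers were at 5.08, 6.79 and 7.75 in the secretome arm, against 7.18, 8.14 and 8.21 in the medium arm, and the part of this in the members' values was not tested.

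In the normal region, with 4 secretome and 2 medium pigs, 0 of 36 members were called in limma. An unadjusted p under 0.05 was found for 0 members and for 92 of 6363 named genes. COL27A1 had the smallest p there, with a difference of 0.73 ± 0.44. COL9A2 came next in p, but on none of these arrays was it well above background, so no difference is given for it. BGN, MFAP2 and COL4A6 differed by 1.49 ± 0.97, 1.20 ± 0.79 and -1.40 ± 0.93. The median over the members was 0.42, with 28 of 36 above 0, and 0.07 over named genes, with 3748 of 6363 above 0. The infarct core minus border zone difference was then compared between arms, and 0 members were called. An unadjusted p under 0.05 was found for 397 of 6363 named genes and for 1 member, COL17A1 (-0.74 ± 0.20, adjusted p = 0.841 in limma). The medium arm of 3 pigs limits all of these, with standard errors of up to 1.08 for the infarct core and for the border zone. A difference that was not called is therefore not shown to be absent.

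**Figure D4:**
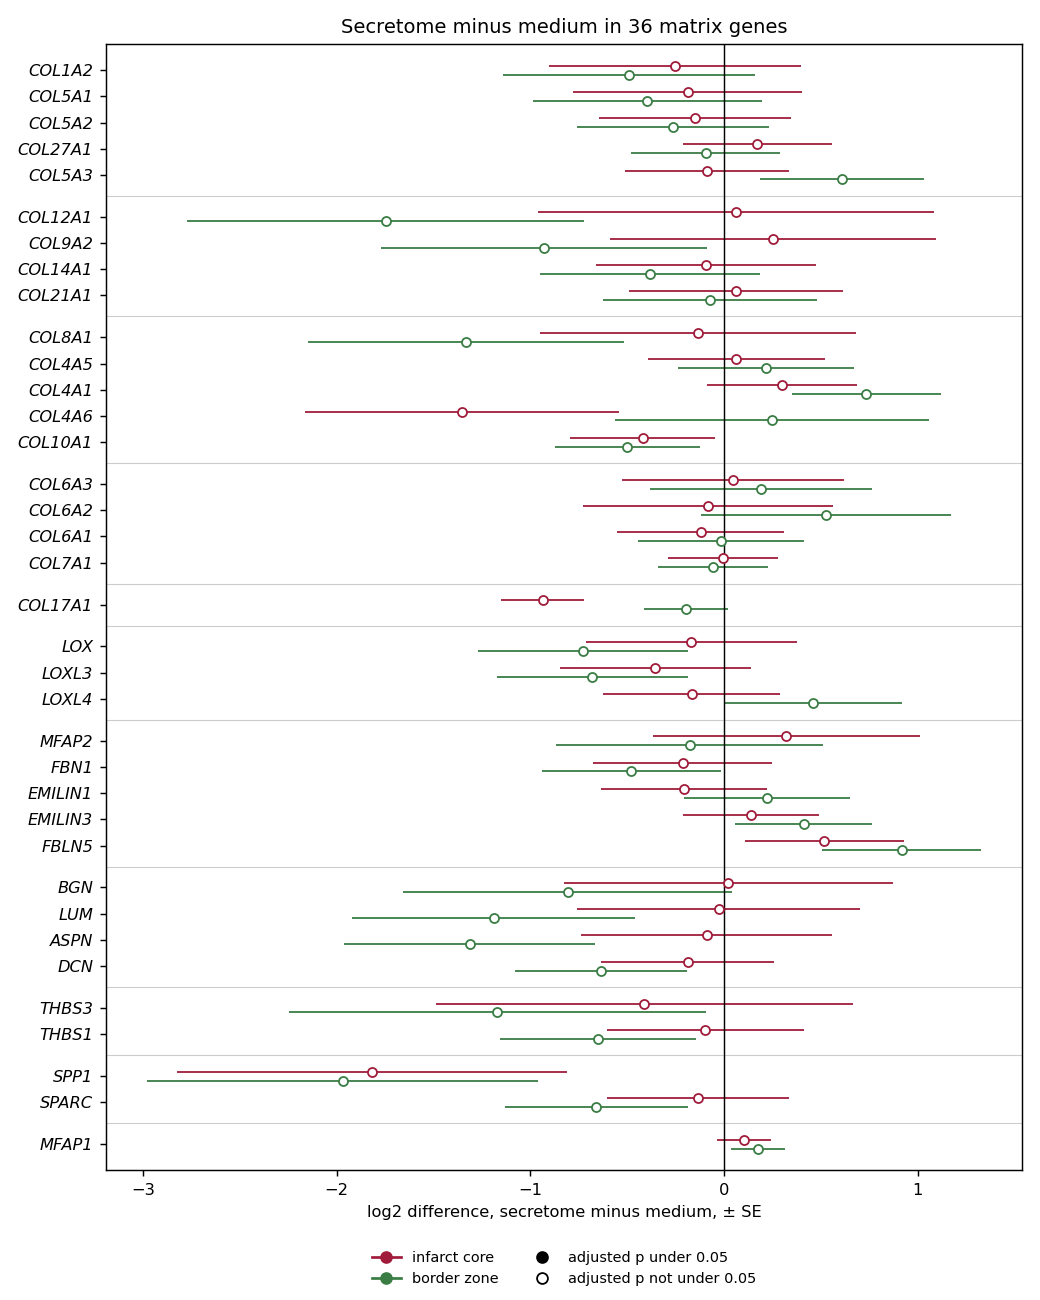
The log2 differences between secretome and medium (± SE) are plotted for the 36 genes by role, infarct core in red and border zone in green. No point is filled, since 0 genes passed in either region, and SPP1 has the lowest value in both, at -1.82 and -1.97.

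Several members were measured by more than 1 probe, and 19 genes had several kept probes. No gene had kept probes called in opposite directions between infarct core and normal region. The probes of COL6A3 differed by 1.92 to 4.27 and those of THBS1 by 0.87 to 2.31, ranges wider than the SE of the brightest probe. Pairs of probes with the same sequence on COL4A1, COL6A2, COL6A3 and SPARC differed from each other by a median of 0.0399 to 0.135 on the log2 scale.

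The gap between a probe and the brightest probe of its gene also varied from pig to pig, and of the members with several kept probes LUM and THBS3 had the widest spans. The second kept THBS3 probe stood 0.84 to 0.90 above the brightest one in pigs 10, 11, 14 and 15, all of scan series 2, and between -2.22 and -1.34 relative to it in the pigs of series 1. Probes of other members split by series without overlap too, though not all did, COL6A2 being an exception. The gap of COL4A1 probe A_72_P527792 was -3.48 to -2.98 in series 2 and -1.91 to -1.61 in series 1. For COL5A2 probe A_72_P223952 it was -4.24 to -4.08 and -2.89 to -2.41, and for DCN probe A_72_P280399 -1.78 to -1.67 and -3.28 to -2.83. For lumican the widest splits did not follow the scan series, though others did. A run of 14 bases of alternating A and C lies in 4 of its probes. In 3 of these 4 probes the level relative to the brightest LUM probe depended on the pig: for probe A_72_P624127 the gap was -0.48 in pig 10, -4.31 in pig 14 and -4.15 in pig 15, and between -1.99 and -1.35 in the other 6 pigs. Within a pig the gap spanned at most 1.89 over its regions. The fourth probe with the run, A_72_P573664, had gaps from -0.92 to -0.02. They split by scan series, at -0.37 to -0.02 in series 2 and -0.92 to -0.68 in series 1. The gaps of A_72_P560404 and A_72_P593744, LUM probes without the run, split by series as well. Pigs 10, 14 and 15 are all of scan series 2, as is pig 11, which for A_72_P624127 lay among the pigs of series 1. Pigs 14 and 15 are secretome animals and pig 10 is a medium animal. The border zone difference between arms was -2.76 ± 0.84 for A_72_P624127, against -1.19 ± 0.73 for the brightest LUM probe, neither called. The region differences of the 3 probes with the run that depended on the pig, 2.66 to 2.80 between infarct core and normal region, were near those of the other LUM probes.

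**Figure D5:**
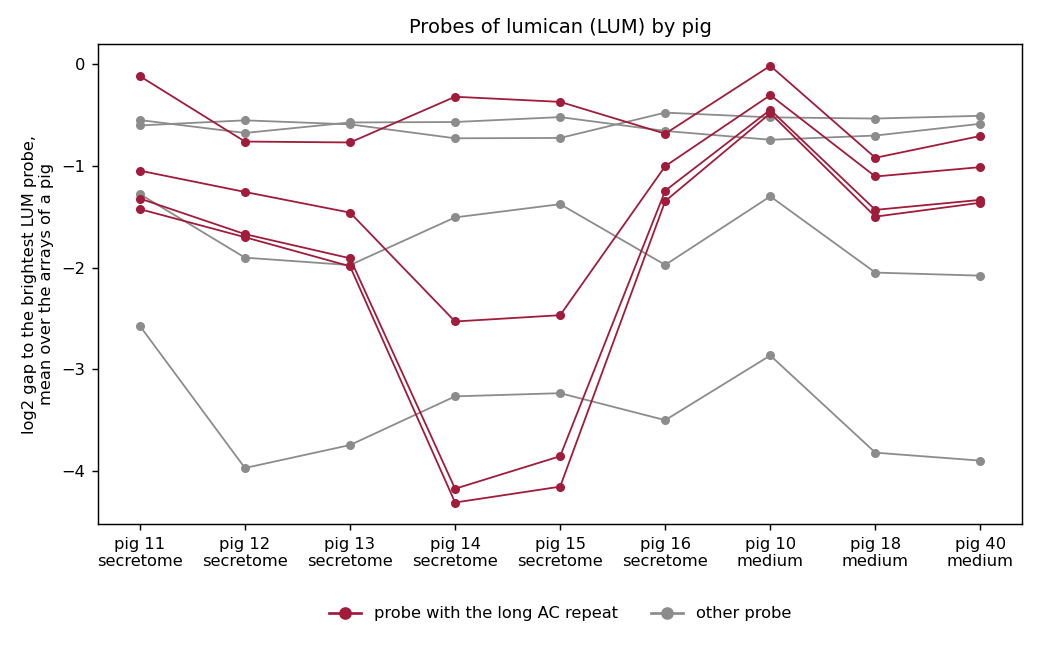
For 8 LUM probes the log2 gap to the brightest LUM probe is plotted by pig, as the mean over the arrays of a pig, with the 4 probes that hold the run of alternating A and C in red. In 3 of the red probes the gap is widest in pigs 14 and 15 and narrowest in pig 10.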

How the data were processed

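RNA of 24 tissue samples from 9 pigs was labelled with Cy3 and hybridized to 1-colour Agilent arrays, 1 sample per array, on 6 slides. Per the file headers, the deposited intensity values come from Agilent Feature Extraction 10.7.3.1, which subtracted the background and detrended each array (gProcessedSignal); mean spot and local background intensities were used for normexp alone. The deposited value table holds log2 values by the authors with column medians of 7.68 to 7.69; once probes were centred, 24 of its 24 columns matched their own array best. Its scaling is not given in the sources used here, and it served as an alternative. The submitters' processing notes name limma 3.14.4.

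Each gProcessedSignal was divided by its array's 75th percentile before log2. Probes well above background on at least 3 arrays were kept (34360 of 43603), control spots and flagged spots left out, and a gene read from its brightest kept probe. Genes were named by RefSeq accession, gene ID or the array's own name; 14786 probes had 1 symbol, 27 several and 28790 none, and none was named from several. Contrasts averaged both arms with equal weight in limma 3.58.1 (R 4.3.3) with Benjamini-Hochberg adjustment over all kept probes, called under 0.05. Same-pig samples come from the same animal and were scanned in the same series. Their deviations from group means correlated at 0.58 on average over 21 pairs (lowest 0.12), and pig was a random block (correlation 0.55). Samples of different pigs and groups within a scan series correlated at 0.44. With scan series as a covariate the block correlation was 0.20, so the 0.55 is not the share of the animal alone. The main fit had no term for scan series and treated pigs of 1 series as independent. The fit was tested on simulated data. The number of arrays limits the precision. The members and lists were chosen with earlier results of these data known. All members may be named; full values follow size and p rules, with the 6 smallest p of the synthesis list. Alternatives were other scalings, background corrections, filters, blocks, scan series, slide, probe means, pooled arms and each pig left out. Genome coordinates and gene or protein sequences beyond the probes were not used here.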

Additional observations from a re-analysis of the deposited data

Results flagged for a closer look

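In 4 of 108 combinations of a member and a group of 4 or 6 arrays, 1 array lay far from the rest by Dixon's criterion, which flags about 1 in 20 groups by chance. In the infarct core of the secretome arm, DCN was at 7.46 in pig 15, against 8.28 to 8.71 in the other 5 pigs, and LOX was at 2.46 in pig 15, against 3.50 to 4.06. Pig 15 is also the animal with the lowest infarct core minus normal region difference in 26 of 36 members. EMILIN3 was at 0.59 in the infarct core of pig 14, against -1.22 to -0.63 in the other 5 secretome pigs. COL5A3 was at -0.81 in the normal region of pig 16, against 0.40 to 0.51 in the other 3 secretome pigs. Of these pigs only pig 16 is of scan series 1. Over both arms, COL5A3 in the normal region was at -0.81 to -0.59 in series 1 and 0.39 to 0.51 in series 2, so this value goes with the series.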

How the results depend on the processing

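Between infarct core and normal region, 27 to 32 members were called with a pig left out. Under the other alternatives, which include each scan series alone, the count was 20 to 31. The lowest came from the authors' deposited values, which cover 24 members. No replicate block gave 26 and pig as a fixed replicate block 30. Between infarct core and border zone the count was 17 in scan series 2 alone and 25 to 29 with a pig left out. The border zone count of 1 became 0 with quantile normalization, normexp, the authors' values, no filter on dim probes, no replicate block, pig as a fixed replicate block, scan series or slide as a covariate, scan series 2 alone and both arms pooled, and 5 in scan series 1 alone; with a pig left out it was 0 to 5, with 5 without pig 11 and 2 without pig 15. Between arms, 1 member (COL17A1) was called in the infarct core with scan series as a covariate. Signs turned as follows. COL4A1 between arms in the border zone was -0.15 in scan series 2 and -0.018 without pig 40, and up to 1.33 with a pig left out. With slide as a covariate, COL4A6 between arms was 1.26 in the infarct core and 1.07 in the normal region. Between arms in the infarct core, FBLN5 was -0.0073 without pig 40, and up to 0.99 with a pig left out, and SPP1 0.53 in scan series 2, where pig 10 alone stands for the medium arm, as it does for COL4A1. Between infarct core and normal region, COL4A6 was 0.0049 with the percentile over detected probes, 0.0012 in the authors' values, 0.29 in scan series 1 and from -0.39 to 0.47 with a pig left out, above 0 without pig 10 (0.47) or pig 11 (0.058). There, COL7A1 was 0.011 in scan series 2 and 0.57 as the mean of its probes, and MFAP1 was 0.069 with quantile normalization and 0.10 in the authors' values. The cause was not tested. The median of all named genes was -0.17 with normexp, against -0.06. Pooled arms could not be fitted for comparisons between arms, nor pig as a fixed block for those within a region. Dim probes (COL9A2, COL4A6, COL10A1) are limited by signal over background.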

Other observations

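Some probes carry no symbol but are described on the array as products of further genes of these families, and they were chosen after such descriptions were searched for. Of 21 such probes 19 were kept, and between infarct core and normal region 12 were called higher, 2 lower and 5 neither. Of all kept probes, 25.4% were called higher and 27.6% lower. A probe described as collagen type I alpha 1 (A_72_P442299) had a median level of 5.10 in the infarct core, against 3.26 in border zone arrays and 1.81 in normal region arrays, and differed by 4.13 between infarct core and normal region (adjusted p = 1.22e-06 in limma). A second probe of that description (A_72_P198052) differed by -0.62 (adjusted p = 0.00117), and another was not kept. The 2 probes described as lysyl oxidase-like 1, an oxidase needed for elastic fibres, differed by 3.62 and 3.25. Osteoglycin, another small proteoglycan, differed by 1.95 (adjusted p = 9.91e-05). Collagen type IV alpha 2, the usual partner chain of COL4A1, differed by 0.07 (not called) and -0.50 (called lower, adjusted p = 0.0498) on its 2 probes. The other probes that were not called were those described as fibrillin 2 (0.48 and -0.01), EMILIN-2 (-0.14) and collagen type XV alpha 1 (0.29).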
